A study of Mus musculus with 9 samples.

Results

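The genes described here are 10 genes of the Notch pathway: the receptors Notch1, Notch2 and Notch3, the ligands Jag1, Jag2, Dll1 and Dll4, and the target genes Hes1, Hes5 and Hey1. They were found as every non-control array probe that carried one of these gene names, which gave 14 of the 41174 probes and 10 of the 22647 genes measured. RNA came from the esophagus of newborn mice (postnatal day 0) and was read on arrays with 2 colours, in which each esophagus (Cy5) was set against the same mixed RNA of 11 mouse cell lines (Cy3). The 3 genotypes, all labelled as C57BL/6J, were mice labelled p63-/-;Cdx2 (n = 2, numbered out of 3 in the labels, the other one not analysed here, and called the transgene arrays below), mice labelled p63-/- (n = 3) and wild type mice (WT, n = 4). The first of these is labelled p63-/- as well and carries a transgene in which the promoter of villin, a gene of the intestinal epithelium, drives Cdx2, a transcription factor of the intestine. Trp63 encodes p63, a transcription factor that stratified squamous epithelia need to form. The cell type label names epithelium, but the protocol describes RNA of esophageal tissue extracted with a kit for fibrous tissue, and which part of Trp63 is deleted is not given in the sources used here.

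Notch receptors sit in the cell membrane and are activated by Jagged and Delta-like ligands on a neighbouring cell. The bound receptor is cut by ADAM proteases and then by the γ-secretase complex, and the freed intracellular part enters the nucleus, joins the DNA-binding protein RBPJ and turns on genes such as those of the Hes and Hey families of transcriptional repressors. In stratified squamous epithelium the pathway is known for its part in the exit of cells from the basal layer and their differentiation, and in the wall of blood vessels it acts between endothelial and mural cells.

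None of the 10 genes passed the test in any of the 3 comparisons. In both comparisons with WT the largest difference was that of Hes1, whose log2 ratio averaged -0.18 ± 0.31 in p63-/-;Cdx2 esophagus (SD, n = 2) and -0.013 ± 0.063 in p63-/- esophagus (SD, n = 3), against 0.50 ± 0.21 in WT (SD, n = 4). The receptors and most ligands lay close together in p63-/- and WT esophagus, where squamous keratins differed severalfold. Jag2 was next, with a mean log2 ratio of 0.98 ± 0.14 in p63-/-;Cdx2 esophagus (SD, n = 2) against 1.51 ± 0.24 in WT (SD, n = 4).

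Between 30018 and 33228 probes per array had a sample signal well above background. On the brightest Trp63 probe the log2 ratios were 3.37 and 3.09 in p63-/-;Cdx2 esophagus and 2.73 to 2.74 in p63-/- esophagus, against 3.53 to 4.34 in WT. The fall in p63-/- against WT was 1.21 on the log2 scale (difference -1.21, SE 0.18, limma with Benjamini-Hochberg adjustment, adjusted p = 0.0215), while p63-/-;Cdx2 against WT did not pass (difference -0.72, SE 0.21, limma adjusted p = 0.0957). A dimmer Trp63 probe was lower in neither group, with log2 ratios of 1.43 and 1.13 on the transgene arrays, the highest of all, and 0.72 to 0.83 in p63-/- esophagus, against 0.29 to 0.73 in WT. For Cdx2, none of the 9 arrays gave a signal well above background, the transgene arrays included. Whether that probe matches the transgene is not given in the sources used here, so it does not check the label, and every direction drawn from that group rests on the label. WT replicate 1 stood apart in Vil1, the villin gene, with a log2 ratio of 3.05 against 1.00 to 1.07 on the other WT arrays. WT replicate 4 is named p63-/- in 1 of its labels and WT in the others, and its Trp63 log2 ratio of 4.13 lay within the WT range. Each genotype was on 1 slide of its own, scanned on its own, so slide and genotype cannot be told apart. The labels call the samples biological replicates.

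Markers fixed for the check of the tissue showed a squamous epithelium in WT and much lower summed squamous marker signal in the other groups. Of 6 basal markers, 3 fell in p63-/- against WT by log ratio and 5 in the sample channel, with Krt14, a keratin of basal cells, at a log2 difference of -2.28 (SE 0.10, limma adjusted p = 5.11e-05). Of 6 suprabasal markers, 5 fell by log ratio and 6 in the sample channel. The log2 of the summed sample signal of the basal list was 15.61 to 15.83 on the transgene arrays and 15.58 to 16.03 in p63-/- esophagus, against 18.01 to 18.32 in WT. That of the suprabasal list was 10.66 to 11.44 on the transgene arrays and 11.28 to 11.56 in p63-/- esophagus, against 14.89 to 15.23 in WT. All 6 basal markers stayed well above background on every array, and 5 or 6 of the suprabasal ones. Of 10 endothelial markers none passed in any comparison, with summed signals of 16.02 to 16.06 on the transgene arrays and 16.09 to 16.46 in p63-/- esophagus, against 15.53 to 16.39 in WT. Of 10 mural and smooth muscle markers, 0 passed in p63-/- against WT and 1, the smooth muscle calponin Cnn1, fell in p63-/-;Cdx2 against WT, with summed signals of 17.87 to 18.24 on the transgene arrays and 18.11 to 18.23 in p63-/- esophagus, against 18.40 to 19.17 in WT, so that this list too was lower on every p63-/-;Cdx2 and p63-/- array than on any WT array. The first transgene array, p63-/-;Cdx2 replicate 1, stood apart in other lists, with a log2 summed signal of 12.70 for 6 secretory markers against 17.41 to 18.90 on the other arrays. It was also the lowest array in the enteric (14.16), immune (15.32), neuroendocrine (12.86) and fibroblast (19.55) lists. The same held for the suprabasal (10.66) and the mural and smooth muscle (17.87) lists. Some values that change without this array are given with the genes. In RNA from a whole tissue, fewer cells of a type and less RNA per cell cannot be told apart, and the part of these cell types in the Notch values was not tested.

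**Figure D1:**
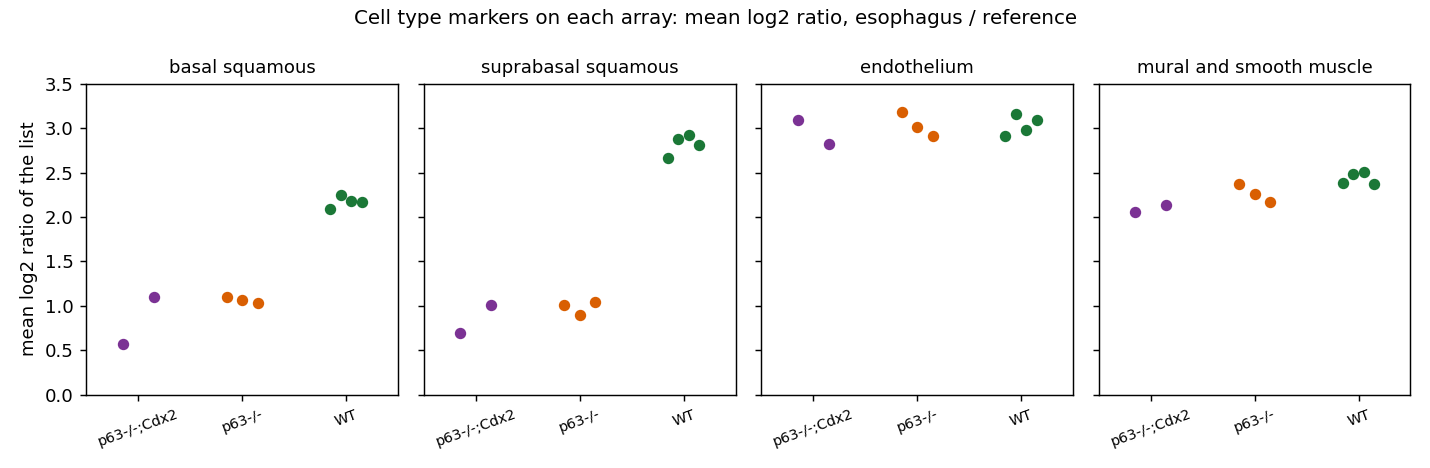
Mean log2 ratio of esophagus over reference RNA for 4 marker lists, with 1 point per array in p63-/-;Cdx2 (n = 2), p63-/- (n = 3) and WT (n = 4). Basal and suprabasal squamous markers are lower on every p63-/-;Cdx2 and p63-/- array than on any WT array, and so, narrowly, are the mural and smooth muscle markers, while the endothelial markers overlap between groups.

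Where a gene had several probes, the brightest one stands for it, and for all 10 genes its signal was well above background on all 9 arrays. The values below are log2 ratios of Cy5 over Cy3 after background correction and loess, so 0 means equal signal in esophagus and reference RNA, and they compare arrays for 1 gene but not genes with each other.

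Among the receptors, Notch1, which is known for its part in squamous differentiation, was read at mm9 chr2:26314772-26314830. Its log2 ratios were 1.35 and 1.83 in p63-/-;Cdx2 esophagus and 1.09, 1.34 and 1.06 in p63-/- esophagus, against 1.15, 1.45, 1.18 and 1.19 in WT. Both transgene arrays lay above all 3 p63-/- arrays, while p63-/- and WT arrays overlapped. The p63-/- minus WT difference was -0.084 (SE 0.14, 95% interval -0.39 to 0.22). For p63-/-;Cdx2 minus p63-/- it was 0.43 (SE 0.16, limma adjusted p = 0.312), and against WT it was 0.34 (SE 0.15, limma adjusted p = 0.239). Without p63-/-;Cdx2 replicate 2 these were 0.19 and 0.10, and without replicate 1 they were 0.67 and 0.59, none past the threshold. A second Notch1 probe gave 0.38 (SE 0.14) against p63-/- by log ratio. In the sample channel it gave 0.081 (SE 0.14) with overlapping groups, where the brightest probe gave 0.38 (SE 0.15, limma adjusted p = 0.24). The reference signal of the second probe also differed, averaging 9.43 on p63-/-;Cdx2, 9.73 on p63-/- and 9.45 on WT arrays. For p63-/- minus WT its sample channel gave 0.27 (SE 0.12, limma adjusted p = 0.296) without overlap. The brightest probe gave -0.061 there.

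Notch2, the receptor whose loss in mice affects liver ducts, kidney and vessels, was read at mm9 chr3:97953914-97953973. It had log2 ratios of 1.11 and 0.99 in p63-/-;Cdx2 esophagus and 0.68, 0.90 and 0.69 in p63-/- esophagus, against 0.51, 0.90, 0.72 and 0.67 in WT. Both transgene arrays were above all other arrays. The difference was 0.29 (SE 0.12, limma adjusted p = 0.347) against p63-/- and 0.35 (SE 0.12, limma adjusted p = 0.137) against WT. By log ratio a dimmer Notch2 probe gave 0.046 (SE 0.11) and 0.049 (SE 0.10) for the same contrasts, and another 0.018 (SE 0.080) and -0.052 (SE 0.076). In the sample channel the brightest, the first dimmer and the other probe gave 0.30 (SE 0.14), 0.28 (SE 0.14) and 0.0083 (SE 0.085) against p63-/-. Against WT they gave 0.28 (SE 0.13), 0.076 (SE 0.13) and -0.045 (SE 0.081), and there the groups overlapped for the brightest probe too. How far the brightest and the first dimmer probe differed therefore depended on the quantity.

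Notch3, a receptor of vascular smooth muscle and pericytes, was read at mm9 chr17:32257848-32257907. Its log2 ratios were 1.53 and 1.52 in p63-/-;Cdx2 esophagus and 1.76, 1.66 and 1.64 in p63-/- esophagus, against 1.57, 1.96, 1.65 and 1.87 in WT. The transgene arrays were the lowest of all, and p63-/- arrays lay inside the WT range. The differences were -0.16 (SE 0.12, limma adjusted p = 0.56) against p63-/- and -0.24 (SE 0.11, limma adjusted p = 0.277) against WT, and -0.073 (SE 0.10) for p63-/- against WT.

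**Figure D2:**
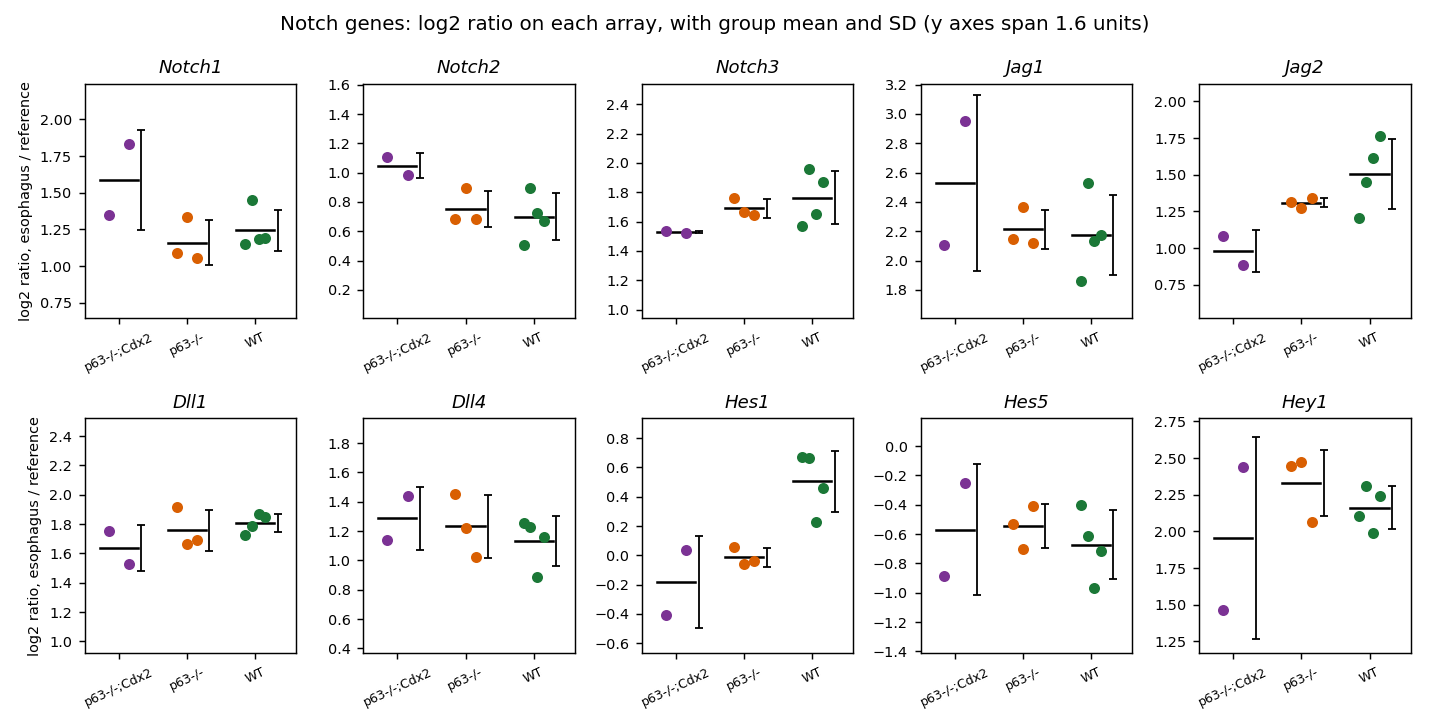
Log2 ratio of esophagus over reference RNA for each of the 10 genes on each array, with the group mean (bar) and SD (error bar at the right), for p63-/-;Cdx2 (n = 2), p63-/- (n = 3) and WT (n = 4). Hes1 is the gene whose 3 p63-/- and 2 p63-/-;Cdx2 arrays all lie below the 4 WT arrays, and Hey1, Jag1 and Hes5 show the widest gaps between the 2 p63-/-;Cdx2 arrays.

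The ligands differed among themselves in how steady they were. Jag1, a Jagged ligand read at mm9 chr2:136907433-136907492, had log2 ratios of 2.11 and 2.95 in p63-/-;Cdx2 esophagus and 2.15, 2.37 and 2.12 in p63-/- esophagus, against 1.86, 2.53, 2.13 and 2.18 in WT. The groups overlapped, and p63-/-;Cdx2 replicate 2 was above every other array. The p63-/- minus WT difference was 0.037 (95% interval -0.45 to 0.53). For p63-/-;Cdx2 minus p63-/- it was 0.32 (SE 0.26), or -0.11 without that replicate and 0.74 without replicate 1. For p63-/-;Cdx2 minus WT it was 0.35 (SE 0.24), or -0.070 without replicate 2 and 0.78 without replicate 1. A second Jag1 probe, well above background on 4 arrays, gave log2 ratios of -0.15 to 0.21.

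Jag2, the Jagged ligand known from limb and craniofacial development, was read at mm9 chr12:114146887-114146946. Its log2 ratios were 1.08 and 0.88 in p63-/-;Cdx2 esophagus and 1.31, 1.27 and 1.34 in p63-/- esophagus, against 1.20, 1.45, 1.61 and 1.76 in WT. Both transgene arrays lay below all others, and the p63-/- arrays lay inside the WT range. The differences were -0.20 (SE 0.13, limma adjusted p = 0.723) for p63-/- against WT, -0.33 (SE 0.15, limma adjusted p = 0.377) for p63-/-;Cdx2 against p63-/- and -0.52 (SE 0.14, limma adjusted p = 0.0883) for p63-/-;Cdx2 against WT. In the sample channel the last was -0.50 (SE 0.15, limma adjusted p = 0.117). Without WT replicate 1, the array with high Vil1 and also the lowest WT array for Jag2, the log ratio difference was -0.63 and passed (limma adjusted p = 0.0362). That was the only 1 of 22 alternative settings by log ratio in which Jag2 passed. Across them the difference ran from -0.63 to -0.38.

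Dll1, the Delta-like ligand of somite segmentation, read at mm9 chr17:15504623-15504682, had log2 ratios of 1.75 and 1.53 in p63-/-;Cdx2 esophagus and 1.92, 1.66 and 1.69 in p63-/- esophagus, against 1.73, 1.78, 1.87 and 1.85 in WT. The groups overlapped, with a p63-/- minus WT difference of -0.051 (SE 0.090, 95% interval -0.26 to 0.16). Dll1 and Notch1 were each printed on 10 spots per array, and the SD of their log2 ratio between spots of 1 array was 0.048 to 0.16 and 0.027 to 0.13.

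Dll4, the ligand of sprouting vessels, read at mm9 chr2:119160779-119160838, had log2 ratios of 1.14 and 1.44 in p63-/-;Cdx2 esophagus and 1.45, 1.22 and 1.02 in p63-/- esophagus, against 1.26, 1.23, 0.89 and 1.16 in WT. All groups overlapped. The p63-/- minus WT difference was 0.099 (SE 0.14, 95% interval -0.21 to 0.41), but it turned to -0.25 (SE 0.12, limma adjusted p = 0.622) with the scanner software's processed signals and likewise with the authors' table. The endothelial markers above did not pass either.

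Among the targets, Hes1, a repressor of the basic helix-loop-helix kind, was the gene with the lowest p in both comparisons with WT. Its probe lies at mm9 chr16:30065983-30066278, a stretch of 296 bases for a probe of 60, and is shown because the largest difference rests on it alone. It is given 5′ to 3′ from the array files, with no letter set apart.
Hes1 probe: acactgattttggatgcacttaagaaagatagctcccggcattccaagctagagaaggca

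Hes1 had log2 ratios of -0.40 and 0.038 in p63-/-;Cdx2 esophagus and 0.059, -0.059 and -0.039 in p63-/- esophagus, against 0.67, 0.66, 0.22 and 0.46 in WT. All 5 p63-/-;Cdx2 and p63-/- arrays lay below all 4 WT arrays, with WT replicate 3 nearest to them. The p63-/- minus WT difference was -0.52 (SE 0.14, 95% interval -0.84 to -0.20, limma adjusted p = 0.222), which is 1.43-fold. The p63-/-;Cdx2 minus WT difference was -0.69 (SE 0.16, 95% interval -1.05 to -0.33, limma adjusted p = 0.0541), or 1.61-fold. Against p63-/- the p63-/-;Cdx2 difference was -0.17 (SE 0.17, 95% interval -0.55 to 0.21). Without p63-/-;Cdx2 replicate 1, the lowest array for Hes1 by log ratio, the last 2 differences were -0.47 and 0.051. In the reference channel, which holds the same RNA on every array, that array had the highest Hes1 signal. It was 8.72, against 8.26 to 8.68 on the other arrays. In the sample channel p63-/- replicates 2 and 3 were lower than that array.

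The sample channel alone also placed all 5 arrays below the 4 WT arrays. The log2 signals were 8.32 and 8.42 in p63-/-;Cdx2 esophagus and 8.59, 8.24 and 8.22 in p63-/- esophagus, against 9.12, 9.08, 8.62 and 9.14 in WT. The differences against WT were -0.62 (SE 0.17, limma adjusted p = 0.0996) for p63-/-;Cdx2 and -0.64 (SE 0.15, limma adjusted p = 0.088) for p63-/-. Without WT replicate 3, Hes1 passed in the sample channel in p63-/- against WT (difference -0.77, limma adjusted p = 0.0316) and in p63-/-;Cdx2 against WT (-0.74, limma adjusted p = 0.0494), and by log ratio in p63-/-;Cdx2 against WT (-0.78, limma adjusted p = 0.0483). The squamous lists and the mural and smooth muscle list given above moved with Hes1, and their part in it was not tested.

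Hes5, a repressor of neural progenitors and a direct target of RBPJ, was read at mm9 chr4:154336347-154336406. It had log2 ratios of -0.89 and -0.25 in p63-/-;Cdx2 esophagus and -0.53, -0.70 and -0.41 in p63-/- esophagus, against -0.40, -0.61, -0.97 and -0.71 in WT. The groups overlapped, and the p63-/- minus WT difference was 0.13 (SE 0.18). For p63-/-;Cdx2 minus WT it was 0.10 (SE 0.20), or 0.42 without p63-/-;Cdx2 replicate 1 and -0.21 without replicate 2. For p63-/-;Cdx2 minus p63-/- it was -0.025 (SE 0.21), or 0.29 without replicate 1 and -0.34 without replicate 2. In the sample channel the difference was 0.41 (SE 0.22, limma adjusted p = 0.418) for p63-/- and 0.57 (SE 0.25, limma adjusted p = 0.243) for p63-/-;Cdx2 against WT, but the reference channel, which holds the same RNA on every array, also differed, by 0.28 and 0.46.

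Hey1, a repressor found in vessel walls and heart, was read at mm9 chr3:8663432-8663491. Its log2 ratios were 1.47 and 2.44 in p63-/-;Cdx2 esophagus and 2.44, 2.48 and 2.07 in p63-/- esophagus, against 2.11, 2.31, 1.99 and 2.24 in WT. The 2 transgene arrays were the lowest array of all and one of the highest, so that group overlapped both others. The difference was 0.17 (SE 0.22) for p63-/- against WT and -0.38 (SE 0.26, 95% interval -0.97 to 0.22) for p63-/-;Cdx2 against p63-/-. The latter was -0.86 without p63-/-;Cdx2 replicate 2 and 0.11 without replicate 1. For p63-/-;Cdx2 against WT it was -0.21 (SE 0.25), or -0.70 without replicate 2 and 0.28 without replicate 1. Replicate 1, by log ratio the lowest array for Hey1 and Hes1, is the array with low summed secretory marker signal, whose part in these values was not tested.

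As the targets are defined by RBPJ, the promoters in the RefSeq table (GRCm38.p6, 250 bases before to 50 after the start site) were searched for the core of its motif, TGGGAA, on both strands (TTCCCA on the other). The table held 9 promoters of 8 of the 10 genes, without Hes1 and Hey1, and the motif was found in 1 of them, that of Hes5. It was in 25.6% of all 32851 promoters, and 1.81% held it on both strands, as Hes5 does. The windows are given 5′ to 3′ on the plus strand, with the motif in capitals, from chr4:154960685-154960714 (226 bases before the start site) and chr4:154960829-154960858 (82 bases before). A match of letters is a description and not a site shown to be bound.
Hes5 far window: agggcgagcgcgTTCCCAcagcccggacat
Hes5 near window: ggccgccgagtgTGGGAAcggccgcggcgc

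The first comparison asks how loss of p63 relates to the pathway. In p63-/- against WT, 0 of the 10 genes passed by log ratio and 1, Hes1, had an unadjusted p under 0.05. Across all 22644 genes tested, 183 passed (0.808%), 22 higher and 161 lower. The 10 differences ran from -0.52 to 0.17 with 5 above 0 and 5 below, and their median was -0.0066 beside 0.0083 for all genes. Of the 95% intervals all 10 lay within -1 and 1, and 6 within -0.5 and 0.5. Hes1 was the only gene of the 10 whose groups did not overlap, beside 11.8% of all genes. In the sample channel 0 of 10 passed, beside 1.98% of all genes (188 higher and 261 lower, or 799 and 186 without Aquantile scaling between arrays).

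The second comparison asks how the Cdx2 transgene relates to the pathway on the p63-/- background. In p63-/-;Cdx2 against p63-/-, 0 of the 10 genes passed by log ratio, and 2, Notch1 and Notch2, had an unadjusted p under 0.05. No gene passed among all 22643 (0%), although 3182 had an unadjusted p under 0.05. The median of the 10 differences was -0.072 beside -0.031 for all genes, and all 10 intervals lay within -1 and 1. Groups did not overlap for Notch1, Notch2, Notch3 and Jag2, 4 of 10, beside 32.1% of all genes. In the sample channel 0 of 10 passed, beside 0.296% of all genes. With 2 arrays in one group, intervals reached a width of over 1 for Jag1 (-0.27 to 0.90) and Hey1.

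The third comparison sets both changes against WT. In p63-/-;Cdx2 against WT, 0 of 10 genes passed by log ratio beside 812 of 22646 genes (3.59%), of which 266 were higher and 546 lower, or 406 and 383 with median centring in place of loess. Of the 10, 3 had an unadjusted p under 0.05, Hes1, Jag2 and Notch2. Those 3 and Notch3 did not overlap between groups, 4 of 10 beside 31% of all genes. The median size of the 10 differences, whatever their sign, was 0.29 beside 0.15 for all genes. It was 0.23 beside 0.14 in p63-/-;Cdx2 against p63-/- and 0.091 beside 0.094 in p63-/- against WT. The 10 were well above background on all 9 arrays, while other genes were kept from 2 arrays up, and the part of this was not tested. In p63-/-;Cdx2 against WT 9 of the 10 intervals lay within -1 and 1, the exception being that of Hes1. In the sample channel 0 of 10 passed, beside 2.89% of all genes (219 higher and 436 lower, or 209 and 238 without Aquantile). Both comparisons with WT share the 4 WT arrays, so their values for 1 gene are not independent.

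**Figure D3:**
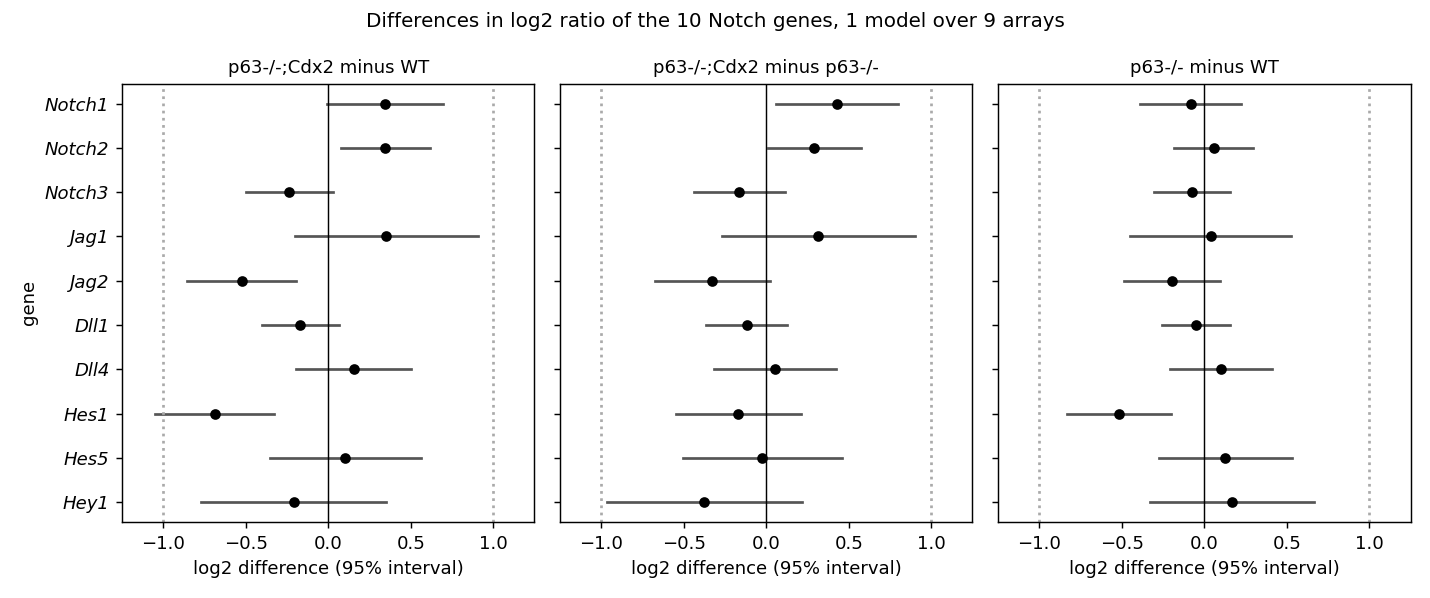
Difference in log2 ratio (point) with its 95% interval (line) for each of the 10 genes, in p63-/-;Cdx2 minus WT, p63-/-;Cdx2 minus p63-/- and p63-/- minus WT. Dotted lines mark -1 and 1, and the interval of Hes1 in p63-/-;Cdx2 minus WT (-1.05 to -0.33) is the only one to cross them.

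**Figure D4:**
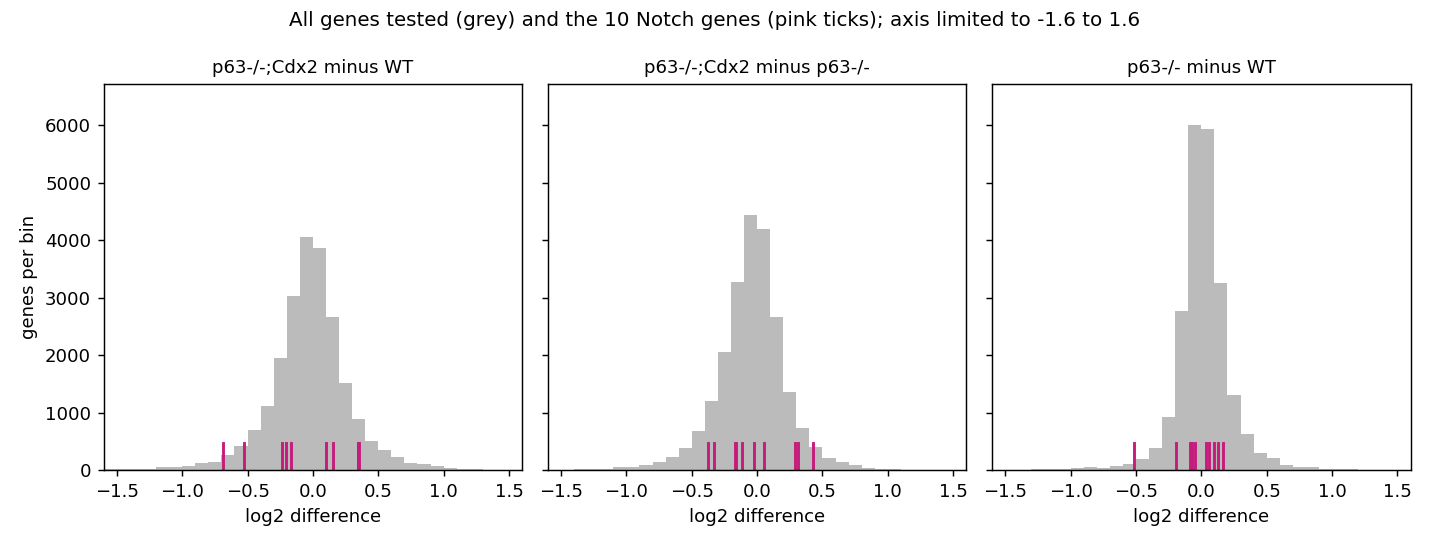
Number of genes in bins of log2 difference (grey) for the 3 comparisons, with the 10 Notch genes as pink ticks, on an axis that leaves out the extremes. In p63-/- minus WT 9 of the 10 ticks lie between -0.20 and 0.17 and Hes1 stands at -0.52.

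Hes1, Jag2 and Notch2 were the 3 genes with the lowest p, and the genes whose pattern over the 9 arrays was nearest to theirs were sought among 19372 genes, by the root mean square difference after scaling each gene to mean 0 and SD 1. For Hes1 these were Unc45a (0.18), a chaperone of myosin, Rab11fip1 (0.20), which binds the recycling GTPase Rab11, and Elovl1 (0.21), an enzyme that lengthens fatty acids. For Jag2 they were Tjap1 (0.17), a protein of tight junctions, Sult1c1 (0.23), a sulfotransferase, and an array probe with no gene name. For Notch2 they were a transcript without a gene symbol here (0.16), Sfswap (0.28), a splicing regulator, and Gjc1 (0.28), a gap junction protein.

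The rest of the pathway was read from 67 further genes, of which 63 were measured. In p63-/- against WT 1 of the 63 fell and none rose, beside 0.808% of all genes that passed. In p63-/-;Cdx2 against p63-/- none passed, and in p63-/-;Cdx2 against WT 2 of the 63 fell and none rose, beside 3.59% of all genes. Both counts lay within 1 gene of those shares. The median differences of the 63 were -0.026, -0.11 and -0.090, beside 0.0083, -0.031 and -0.021 for all genes.

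Dlk2, a membrane protein related to the Delta-like ligands, was the gene that fell in both comparisons with WT. Its log2 ratios were -1.50 and -1.15 in p63-/-;Cdx2 esophagus and -0.75, -0.80 and -0.82 in p63-/- esophagus, against 0.069, 0.40, 0.031 and 0.29 in WT. The 3 genotypes did not overlap. The log2 difference was -0.99 (SE 0.12, limma adjusted p = 0.00696) for p63-/- against WT and -1.52 (SE 0.13, limma adjusted p = 0.00123) for p63-/-;Cdx2 against WT. With the replicate number as a block they were -0.96 (limma adjusted p = 0.0712) and -1.54 (limma adjusted p = 0.0382), so the first no longer passed, at nearly the same size. Dlk2 moved with the squamous and mural marker lists, whose part in it was not tested. The other receptors and ligands of that list (Notch4, Dll3, Dlk1, Dner and Mfap5) did not pass.

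Psen2, a catalytic subunit of γ-secretase, was the other gene that fell in p63-/-;Cdx2 against WT. Its log2 ratios were 0.13 and 0.10 in p63-/-;Cdx2 esophagus and 0.80, 0.38 and 0.56 in p63-/- esophagus, against 0.60, 0.67, 0.82 and 0.74 in WT. The transgene arrays lay below all others. The difference was -0.59 (SE 0.12, limma adjusted p = 0.0358), and it did not pass without WT replicate 2, 3 or 4, p63-/- replicate 3 or either p63-/-;Cdx2 replicate (limma adjusted p of 0.0666 to 0.126). In the processing and glycosylation list the other 14 genes did not pass.

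In the 3 lists left no gene passed as reported, but some did under an alternative, as given with the processing. Of 15 measured genes of ligand ubiquitylation, receptor trafficking and turnover, Mib2, a ubiquitin ligase for ligands, had the lowest p (difference -0.41 in p63-/-;Cdx2 against WT, limma adjusted p = 0.058). Of 19 genes of the nuclear complex, Tle2, a Groucho corepressor, had the lowest, with log2 ratios of 0.032, 0.00080 and 0.11 in p63-/- esophagus against -0.38, -0.36, -0.39 and -0.44 in WT (difference 0.44, SE 0.12, limma adjusted p = 0.22). Of 8 other Hes and Hey genes with Nrarp, a target that feeds back on the pathway, Bhlhe40 had the lowest (difference -0.50 in p63-/-;Cdx2 against WT, limma adjusted p = 0.166).

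**Figure D5:**
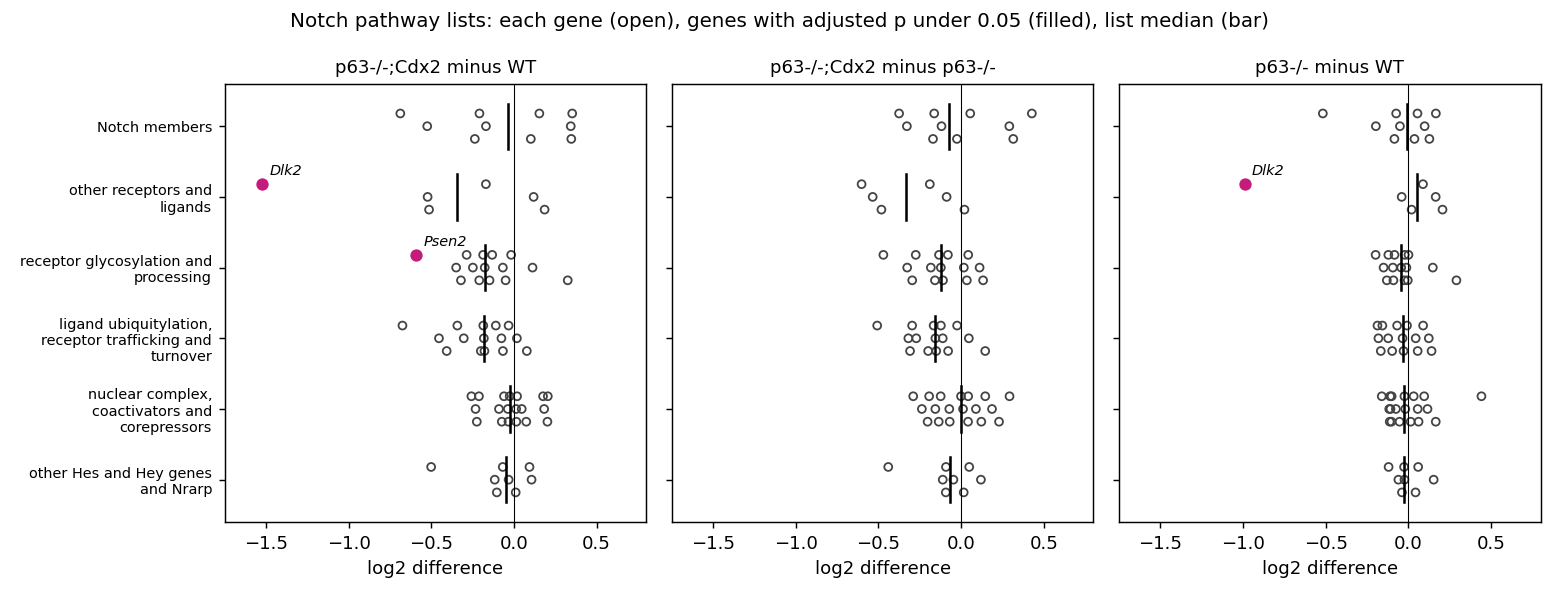
Log2 difference of each gene in 6 lists of the Notch pathway for the 3 comparisons, with list medians as bars and genes that passed filled. Dlk2 is the filled point at -0.99 in p63-/- minus WT and at -1.52 in p63-/-;Cdx2 minus WT, and Psen2 is filled at -0.59 in p63-/-;Cdx2 minus WT.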

How the data were processed

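Esophageal RNA of 9 mice was hybridised with a common reference, always in the same dye orientation. The deposited files hold, per the file headers, mean spot intensity and local background intensity in each channel, written by Agilent Feature Extraction 10.7.3.1, while the submitters' processing notes name version 9.1. Per the file headers they also hold the software's own log10 ratio of Cy5 over Cy3. The authors' deposited value table of log2 ratios (41267 rows) correlated with each array's own ratio at r of 0.992 to 1.00, had column medians of -0.21 to -0.028, and how it was centred is not given in the sources used here.

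Of 45018 spots, 1639 were controls. Spots called outliers by the software (196 to 294 per array) were left out. Background was corrected by normexp with an offset of 50, and 2-colour loess followed, with controls at weight 0. Fitted on all spots, normexp gave WT replicate 3 a background mean of -233 in the sample channel, where all other arrays lay between -10.1 and -8.61, because of 9 spots with very bright local background. Spots whose local background exceeded 2 times the array median (1 to 17 on WT arrays, none elsewhere and none of a Notch gene) were therefore left out, a choice made after seeing the data. The sample channel is log2 of Cy5 after loess and Aquantile. Replicate spots were averaged, probes well above background on at least 2 arrays were kept (33749), and a gene is its brightest probe. Of 41174 probes 26918 were named by accession and 5899 by symbol or synonym in a RefSeq table (GRCm38.p6).

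One limma 3.58.1 model (R 4.3.3) over 9 arrays gave 3 comparisons, moderated by eBayes, with Benjamini-Hochberg adjustment over all genes at 0.05. The script was tested on simulated data. The number of arrays limits the precision. The genes and lists were chosen with earlier results of these data known. All 10 Notch genes are named, and from each other list up to 3 genes that passed, or the one with the lowest p. Other corrections, filters, probe summaries, priors, the authors' table, a replicate block and leaving out each array in turn were tried. The replicate numbers are no stated pairing, so they were not taken as pairs. Deviations of same-numbered arrays from their group means correlated at -0.13 to 0.28. Differently numbered arrays were not compared, so these correlations cannot decide whether the numbers mark pairs.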

Additional observations from a re-analysis of the deposited data

Results flagged for a closer look

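Of 20 sets of 4 WT values tested for a single distant array, 3 had one. The sets were the 10 genes, each by log ratio and by sample channel, which share the Cy5 signal. They are therefore not independent, and the chance rate of about 1 in 20 for a single set is no measure of the count. Of the 3 sets, 2 were Notch1 on the same array. Notch1 was high on WT replicate 2, with a log2 ratio of 1.45 against 1.15 to 1.19 on the other WT arrays, and with a log2 sample signal of 11.48 against 11.21 to 11.25. Its 10 spots on that array ranged from 1.30 to 1.62. Hes1 was low in the sample channel on WT replicate 3, at 8.62 against 9.08 to 9.14.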

How the results depend on the processing

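With 0 of 10 Notch genes passing as reported, 1 passed in p63-/-;Cdx2 against WT by log ratio under a trended and robust variance prior (Hes1, adjusted p = 0.0426). Leaving out 1 array gave 0 to 1 there and in both sample channel comparisons with WT: Jag2 passed without WT replicate 1, and Hes1 without WT replicate 3 or without p63-/-;Cdx2 replicate 2 (difference -0.91, adjusted p = 0.0434). The cause was not tested. All other alternatives gave 0, including the replicate block, under which Dlk2 no longer passed in p63-/- against WT (difference -0.96, adjusted p = 0.0712) or in the sample channel in p63-/- (0.0565) or p63-/-;Cdx2 against WT (0.0591), though the differences kept nearly the same size, nor Psen2 (0.217). Psen2 was also lost with the software's processed signals (0.0732), an offset of 0 (0.0533), median centring (0.0526), the authors' table (0.0731) and normexp on all spots (0.0553). Other pathway genes that gained a call included Tle2 in p63-/- against WT with only the 2 groups compared in the fit. Leaving out either transgene array gave the same result there, so it is not a separate test. Mib2 gained one with the trended and robust prior or without p63-/- replicate 1, and Snw1 with each probe tested alone. In fits that left 1 transgene array, calls were also gained by Dtx1 and Mfap5 in the sample channel and by Tle2 in p63-/-;Cdx2 against WT. A slide block could not be fitted. Where leaving out an array left 1 with the transgene, that array is assumed to vary like the other groups.

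The number of genes that passed by log ratio moved more. In p63-/- against WT it was 183, or 74 with normexp on all spots, 52 with the replicate block and 84 (without p63-/- replicate 2) to 297 (without either p63-/-;Cdx2 replicate) with 1 array left out. In p63-/-;Cdx2 against WT it was 812, or 319, 35 and 243 (without WT replicate 4) to 1181 (without p63-/- replicate 1), and 397 with the software's processed signals. In p63-/-;Cdx2 against p63-/- it was 0, and up to 116 without p63-/-;Cdx2 replicate 1. In the sample channel the 3 counts were 449, 67 and 655, or 111, 0 and 44 with the replicate block. Without Aquantile p63-/- against WT gave 985, with a median difference of 0.16 over all genes. In that setting Notch1 (0.13), Notch2 (0.18), Notch3 (0.12), Jag2 (0.038) and Dll1 (0.068) turned from below to above 0. The other Notch genes kept their sign there, and none of the 10 passed. With normexp on all spots, the log2 ratio on WT replicate 3 was 1.06 in place of 1.87 for Dll1 and 0.29 in place of 0.89 for Dll4, and the Dll1 difference in p63-/- against WT was 0.15 in place of -0.051.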
